A study of Mus musculus with 2 samples.

Results

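A set of 10 receptor genes for cytokines and alarmins was described in single cells of the gut, chosen by name from 17238 genes in the deposited table of cells. They were Il1rl1, Il17rb and Crlf2, which receive alarmins, Il9r, Il7r, Il2ra and Il2rb of the common gamma chain family, and Il23r, Il1r1 and Il18r1. All 10 were in the table. None was chosen from its measured level, but the choice was made with earlier results of these data known. The cells were innate lymphoid cells (ILCs) sorted for IL7ra from fed C57BL/6 mice aged 8 weeks, with 5490 cells of the small intestine, and 7549 cells of the colon. There was 1 library per tissue, and each sample was a pool of 8 mice per the submitters' design text, so no difference between tissues could be set against the spread between mice. No test between samples was possible, and every interval below is a 95% interval of counting error only. IL7ra is the protein product of Il7r, so the sort set which cells could enter the Il7r comparison.

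Alarmins are signals that epithelial and stromal cells release at barrier surfaces. IL-33 binds ST2, the product of Il1rl1, IL-25 binds a receptor that contains the product of Il17rb, and TSLP binds the product of Crlf2 paired with IL7ra. These receptors are known for driving group 2 ILCs (ILC2s), which make IL-5, IL-13 and amphiregulin, and the transcription factor GATA3 marks and maintains that class. IL-23 and IL-1 act through Il23r and Il1r1 on group 3 ILCs (ILC3s), which make IL-22 and IL-17. Il18r1 encodes the binding chain of the IL-18 receptor. IL-7, IL-9, IL-2 and IL-15 signal through the common gamma chain. Il7r and Il9r carry the private chains for IL-7 and IL-9, Il2ra encodes CD25, which raises affinity for IL-2, and Il2rb encodes a chain shared by the IL-2 and IL-15 receptors.

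The promoters of the 3 receptors that were highest in Gata3-positive cells of both tissues (Il1rl1, Il17rb and Il9r) and of Il23r, which was lowest there in the colon, are printed to show where short letter patterns of GATA, ROR and STAT factors fall in them. Each runs from 250 bases before to 50 bases after an annotated start, 5′ to 3′ on the gene's strand, from RefSeq on GRCm38.p6. Capitals mark AGATAA, a pattern of the GATA family, or AGGTCA (a half-site bound by ROR factors), read on both strands, so that a match on the other strand appears as its reverse complement.
Il1rl1 first start, chr1:40429320-40429619, plus strand: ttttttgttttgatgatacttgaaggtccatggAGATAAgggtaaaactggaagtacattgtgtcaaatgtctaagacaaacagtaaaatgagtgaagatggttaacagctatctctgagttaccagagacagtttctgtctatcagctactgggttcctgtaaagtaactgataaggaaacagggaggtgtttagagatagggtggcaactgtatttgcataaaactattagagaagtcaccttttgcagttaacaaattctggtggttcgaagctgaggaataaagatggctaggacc
Il1rl1 second start, chr1:40439379-40439678, plus strand: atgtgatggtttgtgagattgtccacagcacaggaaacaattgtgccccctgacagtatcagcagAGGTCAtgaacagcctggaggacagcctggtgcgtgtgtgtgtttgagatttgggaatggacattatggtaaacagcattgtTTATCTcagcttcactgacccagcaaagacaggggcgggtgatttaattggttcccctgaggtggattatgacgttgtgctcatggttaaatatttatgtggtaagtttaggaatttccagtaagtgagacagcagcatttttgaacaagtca
Il17rb, chr14:30008847-30009146, minus strand: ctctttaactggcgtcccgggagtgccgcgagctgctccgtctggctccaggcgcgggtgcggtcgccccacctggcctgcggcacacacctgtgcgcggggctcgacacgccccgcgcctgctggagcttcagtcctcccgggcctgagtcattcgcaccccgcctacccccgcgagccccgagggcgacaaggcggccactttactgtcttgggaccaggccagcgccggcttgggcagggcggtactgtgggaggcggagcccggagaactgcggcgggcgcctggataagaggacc
Il9r, chr11:32200230-32200529, minus strand: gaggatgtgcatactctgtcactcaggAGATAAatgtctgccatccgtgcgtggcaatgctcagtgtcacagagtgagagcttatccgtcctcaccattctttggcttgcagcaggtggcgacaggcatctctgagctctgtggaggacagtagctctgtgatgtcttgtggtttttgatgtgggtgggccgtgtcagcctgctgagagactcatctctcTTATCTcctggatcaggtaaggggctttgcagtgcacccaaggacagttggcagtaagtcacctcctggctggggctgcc
Il23r, chr6:67491806-67492105, minus strand: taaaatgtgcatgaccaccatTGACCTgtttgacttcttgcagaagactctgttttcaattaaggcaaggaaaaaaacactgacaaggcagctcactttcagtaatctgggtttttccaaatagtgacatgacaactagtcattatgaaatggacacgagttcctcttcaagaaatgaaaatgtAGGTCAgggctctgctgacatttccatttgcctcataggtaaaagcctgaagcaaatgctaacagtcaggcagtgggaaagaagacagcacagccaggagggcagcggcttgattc
AGATAA was found in 11.2% of the 32851 promoter windows of this length. It lay 217 bases before the first Il1rl1 start, 103 bases before the second, and at 223 and 30 bases before the Il9r start. AGGTCA, present in 16.3% of all windows, was in the Il23r window at 229 and 66 bases before the start and in the window of the second Il1rl1 start at 185 bases before it. The STAT pattern TTCNNNGAA, present in 8.30% of all windows, was in none of the windows printed here and was found in those of Il7r and Il18r1. The Il17rb window held none of these letters. Windows were available for 9 of the receptors, in 13 entries, and Il2rb was named only. These matches describe letters and say nothing of factor binding.

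Cells were grouped by 5 marker genes, each called positive at 1 or more unique molecular identifiers (UMIs, counts of captured transcripts). Ccr6 marks lymphoid tissue inducer-like ILC3s, Ncr1 marks NKp46-bearing ILC3s, ILC1s and NK cells, Klrd1 marks NK-type cells and Cd3e marks T cells. Ccr6-positive cells numbered 541 in the small intestine, against 357 in the colon. Ncr1-positive cells numbered 1605 and Gata3-positive cells 1643 in the small intestine, against 665 and 4218 in the colon. Klrd1-positive cells numbered 172 and Cd3e-positive cells 429 in the small intestine, against 482 and 1384 in the colon. The groups overlap, because a cell can carry several markers. In the small intestine between 30.3% (Ccr6) and 82.0% (Klrd1) of a group carried another marker, and in the colon between 17.6% (Gata3) and 75.1% (Klrd1) did. Levels are therefore also given for cells with exactly 1 marker, called Gata3-only cells and so on, and for cells with none (1882 in the small intestine, against 1615 in the colon).

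The table held 15080081 UMIs for the small intestine, against 22332691 for the colon, with a median of 2579 and 2600 UMIs per cell. The median mitochondrial share was 2.49% in the small intestine, against 2.69% in the colon. Free RNA made up an estimated 5.36% of the cells' UMIs in the small intestine, against 8.25% in the colon, and 60 barcodes occurred in both libraries, against 56.2 expected by chance. The ILC2 list was highest in the Gata3-positive groups. The summed level of 9 ILC2 genes was 1564 CPM (UMIs of a gene scaled to a total of 1000000 UMIs per group) in Gata3-positive cells of the small intestine and 1753 CPM in those of the colon, against at most 473 CPM in any other marker-positive group of either tissue. All but 1 of those 9 genes were seen in Gata3-positive cells of the small intestine and all in those of the colon, and Ptgdr2, a common ILC2 surface marker, had 0 and 1 UMIs there. Mast cell and basophil genes, which would mark other ST2-bearing cells, summed to between 0 and 4.54 CPM in the marker-positive groups, with 3 of the 7 genes absent from the table. The sort was for ILCs, but 10 T cell genes summed to 6157 CPM in Cd3e-positive cells of the small intestine, against 4668 CPM in those of the colon. The 7 B and plasma cell genes summed to between 77.6 and 1415 CPM in the marker-positive groups.

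Il1rl1, the IL-33 receptor, was highest in Gata3-only cells of the colon. Its level was 37.4 CPM in Gata3-only cells of the small intestine (125 UMIs, 31.1 to 44.5), against 142 CPM in those of the colon (1477 UMIs, 135 to 149). Cells of the colon with none of the markers came next to the top at 62.7 CPM (55.2 to 70.9), and such cells of the small intestine had 4.71 CPM. Those 2 groups without a marker also held the highest sums of 7 B and plasma cell genes, at 13760 CPM in the small intestine, against 8368 CPM in the colon. The 9 ILC2 genes summed to 316 CPM in the cells without a marker of the small intestine, against 907 CPM in those of the colon. The part of either kind of cell in these levels was not tested. Every other group with 1 marker and an Il1rl1 UMI lay at or below 22.5 CPM in both tissues. Ccr6-only, Cd3e-only and Klrd1-only cells of the small intestine had 0 UMIs, where the floor of 3 counts stands at 3.30, 4.18 and 40.3 CPM, so the 31 Klrd1-only cells could not be placed in the order. Of the 11 steps between neighbours in the order of the 12 groups, 2 were larger than counting error, those below the colon Gata3-only cells and below the colon cells with no marker.

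Between tissues, Il1rl1 was lower in the small intestine in every marker-positive group. In Gata3-positive cells it was 4.70-fold lower (3.94 to 5.65), at 26.4 CPM in the small intestine, against 124 CPM in the colon. In Ncr1-positive cells it was 12.3-fold lower (6.25 to 27.1), with 10 UMIs in the small intestine, against 58 in the colon. In Cd3e-positive cells it was 8.00-fold lower (3.35 to 25.0), with 5 UMIs in the small intestine, against 145 in the colon. Klrd1-positive cells had 0 UMIs in the small intestine, against 48 in the colon, which makes the small intestine at least 4.78-fold lower. Ccr6-positive cells had 1 UMI in the small intestine, against 45 in the colon, a ratio of 0.0261 (0.000646 to 0.153). Within each marker-positive group of the colon other than Gata3, most Il1rl1 UMIs were in cells that carried another marker. Of the 45 UMIs in Ccr6-positive cells of the colon, 44 were in the 179 cells with another marker, which had a median of 5421 UMIs, and 1 was in the 178 cells with none, which had a median of 2892 UMIs.

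Shares of cells showed the same tissue order for Il1rl1. After every cell was thinned to 1000 UMIs, 1.77% of Gata3-positive cells of the small intestine had an Il1rl1 UMI (1.19 to 2.53), against 11.2% of those of the colon (10.3 to 12.2). Without thinning the shares were 5.66% in the small intestine, against 27.2% in the colon, at medians of 2901 and 2765.5 UMIs per cell. In Ccr6-positive cells, which stand here for cells with little expected expression, the thinned shares were 0 of 541 for the small intestine (upper limit of the interval 0.680% of cells with a UMI, and 0.555% by the floor of 3 counts) and 1.12% for the colon, at medians of 2366 and 3443 UMIs. Free RNA alone would give Il1rl1 an estimated 0.589 CPM in cells of the small intestine, against 6.56 CPM in those of the colon, so the 1.75 CPM of colon Ccr6-only cells is not read as expression.

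Il17rb, a chain of the IL-25 receptor, was also highest in Gata3-only cells but in the opposite tissue order. It had 208 CPM in Gata3-only cells of the small intestine (697 UMIs, 193 to 225), against 124 CPM in those of the colon (1296 UMIs, 118 to 131). Cells with no marker had 27.2 CPM in the small intestine, against 70.3 CPM in the colon. Groups with 1 marker other than Gata3 lay between 4.40 and 40.3 CPM, and the top of that range rested on 3 UMIs. In all Gata3-positive cells it was 1.43-fold higher in the small intestine (1.31 to 1.56), at 154 CPM there and 108 CPM in the colon, which is under the 2-fold threshold. In Ccr6-positive cells it was 2.30-fold lower in the small intestine (1.18 to 4.73), with 13 UMIs there and 35 in the colon. In Klrd1-positive cells it was 2.84-fold lower (1.02 to 10.96), with 4 UMIs in the small intestine, against 38 in the colon. That direction was not kept without cells that carried another marker, but too few UMIs were left to give one. In Klrd1-only cells Il17rb had 3 UMIs in 31 cells of the small intestine, against 5 UMIs in 120 cells of the colon. That is 40.3 CPM in the small intestine (8.32 to 118), against 16.1 CPM in the colon (5.22 to 37.5). These intervals overlap, and the first level equals the floor of 3 counts. Thinned to 1000 UMIs, 11.8% of Gata3-positive cells of the small intestine had an Il17rb UMI (10.3 to 13.5), against 10.1% of those of the colon (9.18 to 11.02), and these intervals overlap.

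Crlf2, the TSLP receptor chain, varied least. Over the 12 groups its level ran between 73.6 CPM (colon Ccr6-only cells, 53.0 to 99.4) and 116 CPM (small intestine Ncr1-only cells, 105 to 129). The intervals of these ends did not overlap, though 0 of the 11 steps between neighbours exceeded counting error. In Gata3-positive cells it had 87.8 CPM in the small intestine, against 91.8 CPM in the colon, a ratio of 0.957 (0.857 to 1.07). In no marker-positive group did the tissues differ by 2-fold, and the farthest ratio was 1.33 (1.07 to 1.64) in Cd3e-positive cells. The share of cells with a Crlf2 UMI after thinning lay between 7.91% and 12.2% in the groups of the small intestine and between 7.26% and 8.96% in those of the colon.

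Il9r, the IL-9 receptor, followed Il1rl1 and Il17rb in being highest in Gata3-only cells. It had 43.7 CPM in Gata3-only cells of the small intestine (146 UMIs, 36.9 to 51.3), against 58.0 CPM in those of the colon (604 UMIs, 53.5 to 62.8). In Gata3-positive cells it was 1.49-fold lower in the small intestine (1.26 to 1.77). In Ncr1-positive cells it was 2.46-fold lower (1.27 to 4.81), with 19 UMIs in the small intestine, against 22 in the colon. In Klrd1-positive and Cd3e-positive cells it passed the 2-fold threshold with 1 and 8 UMIs in the small intestine, against 19 and 58 in the colon, and both intervals included 1. In Cd3e-positive cells the ratio was 0.4997, at the threshold itself. Ccr6-positive cells held 18 UMIs over both tissues, under the minimum of 20, and are not called.

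**Figure D1:**
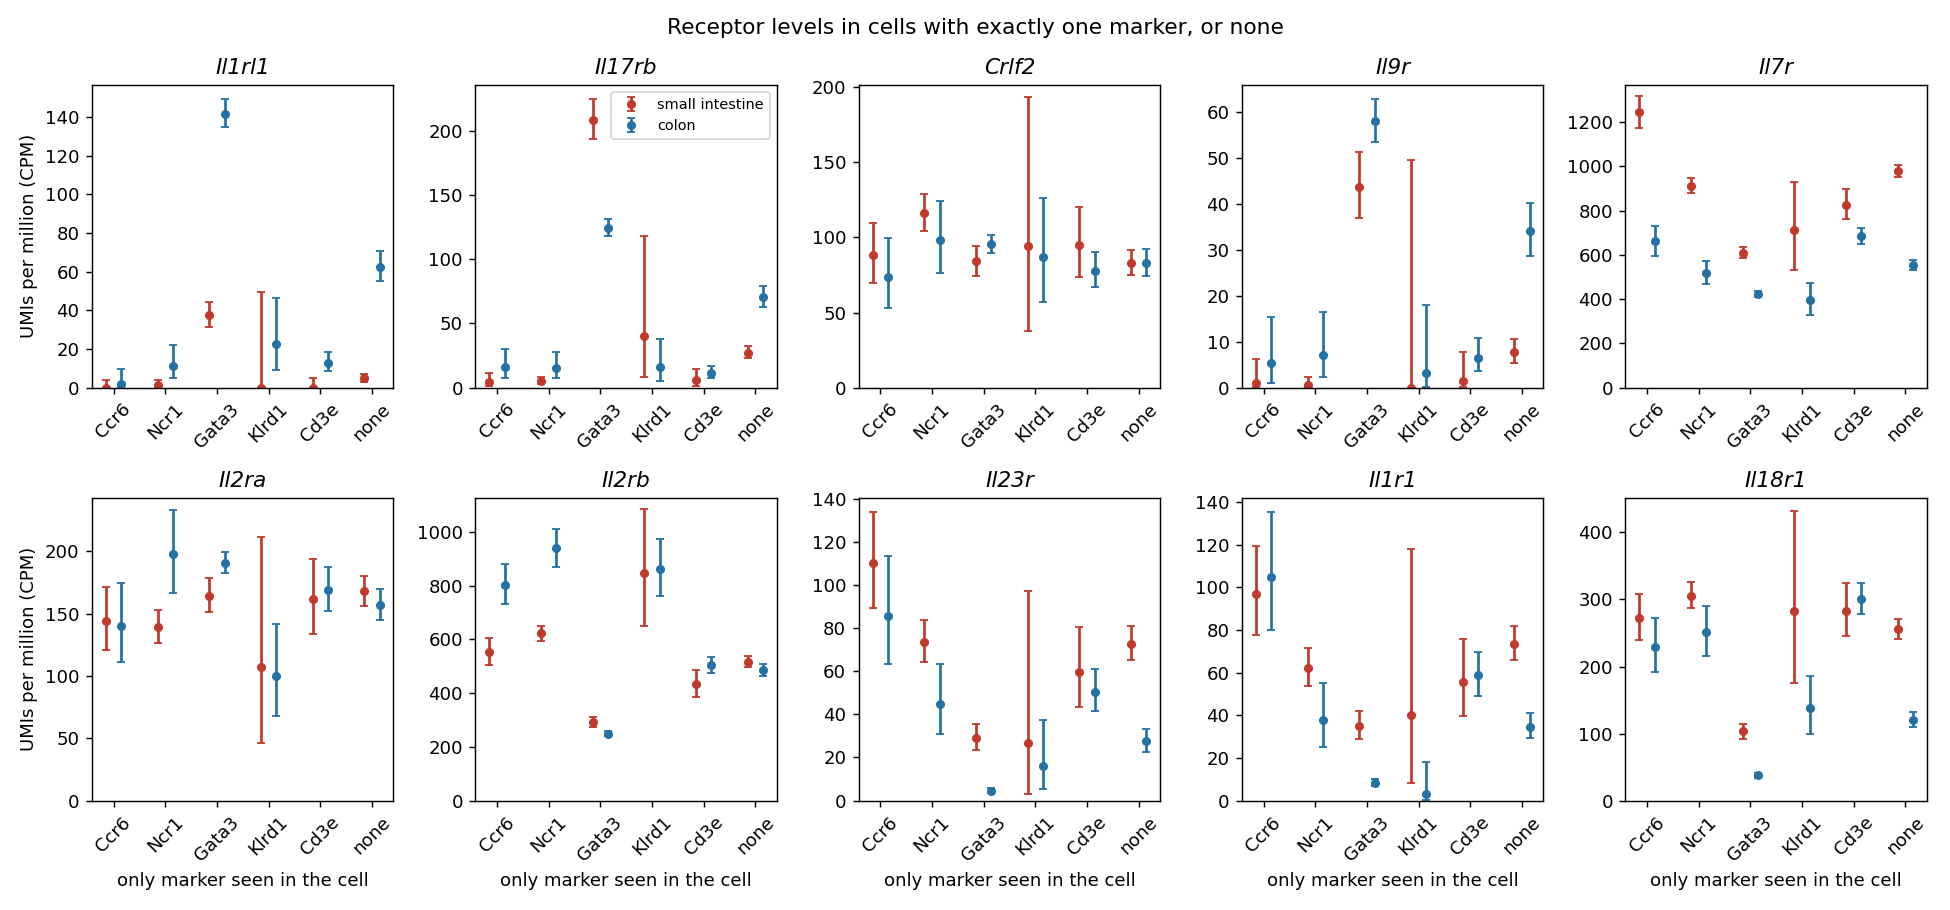
Level of each receptor (CPM, linear axes that start at 0) in cells with exactly 1 marker or none. Points are summed levels of 1 library, bars are 95% counting intervals, and each panel has the small intestine (red) left of the colon (blue). Il1rl1, Il17rb and Il9r peak in Gata3-only cells, Crlf2 is nearly level, and Il23r, Il1r1 and Il18r1 are low in the colon Gata3-only cells.

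Among the other common gamma chain receptors, Il7r, which pairs with that chain to bind IL-7, was higher in the small intestine throughout. The top 5 of the 12 groups were all of the small intestine, led by the Ccr6-only cells at 1245 CPM (1173 to 1319). The lowest were Gata3-only cells of the colon at 422 CPM (410 to 435) and Klrd1-only cells of the colon at 396 CPM (329 to 472), which did not differ beyond counting error. The small intestine exceeded the colon 1.88-fold in Ccr6-positive cells (1.74 to 2.03), 1.91-fold in Ncr1-positive cells (1.78 to 2.04) and 1.62-fold in Gata3-positive cells (1.55 to 1.69). None of these reached 2-fold.

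Il2ra, which encodes CD25, spread less over the 12 groups than the other receptors apart from Crlf2. It lay between 99.7 CPM (colon Klrd1-only cells, 67.7 to 141.5) and 198 CPM (colon Ncr1-only cells, 167 to 233). The intervals of these ends did not overlap, though only 1 of the 11 steps between neighbours exceeded counting error. In Gata3-positive cells it had 148 CPM in the small intestine, against 185 CPM in the colon, a ratio of 0.801 (0.738 to 0.870).

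Il2rb, the chain shared by the IL-2 and IL-15 receptors, was lowest where Il1rl1 was highest. It had 292 CPM in Gata3-only cells of the small intestine (274 to 311), against 249.5 CPM in those of the colon (240 to 259), the lowest values of the 12 groups. It was highest in Ncr1-only cells of the colon at 938 CPM (868 to 1012). The next 3 were both Klrd1-only groups and the colon Ccr6-only cells, the last at 802 CPM (730 to 879). No step between neighbours among these 4 groups exceeded counting error, but the first and last were not compared directly. Between tissues it was 1.39-fold lower in the small intestine in Ncr1-positive cells (1.31 to 1.47) and 1.30-fold lower in Ccr6-positive cells (1.18 to 1.43), but 1.19-fold higher in Gata3-positive cells (1.13 to 1.26).

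Il23r, the IL-23 receptor chain, was highest in Ccr6-only cells. It had 110 CPM in Ccr6-only cells of the small intestine (100 UMIs, 89.5 to 134), against 85.8 CPM in those of the colon (49 UMIs, 63.5 to 113), which did not differ beyond counting error. It was lowest in Gata3-only cells of the colon at 4.51 CPM (47 UMIs, 3.32 to 6.00), set against 29.0 CPM in those of the small intestine. In Gata3-positive cells it was 4.06-fold higher in the small intestine (3.25 to 5.08), with 207 UMIs there and 136 in the colon. In Ncr1-positive cells it was 2.64-fold higher (1.99 to 3.56), at 68.7 CPM in the small intestine, against 26.0 CPM in the colon. Ncr1-only cells had 73.6 CPM in the small intestine, against 44.9 CPM in the colon, short of 2-fold. The 9 ILC3 genes, all seen in both tissues, summed to 5684 CPM in Gata3-positive cells of the small intestine, against 3177 CPM in those of the colon, and to 4855 and 2629 CPM in Gata3-only cells. In Ncr1-positive cells they summed to 8136 CPM in the small intestine, against 5799 CPM in the colon. The part of a different mix of cell types within a marker-positive group was not tested.

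Il1r1, the type 1 IL-1 receptor, resembled Il23r. It had 96.8 CPM in Ccr6-only cells of the small intestine (77.7 to 119), against 105 CPM in those of the colon (80.2 to 135). In Gata3-only cells it had 35.0 CPM in the small intestine, against 8.35 CPM in the colon. In Gata3-positive cells it was 2.67-fold higher in the small intestine (2.20 to 3.23), and in Ncr1-positive cells 2.13-fold higher (1.63 to 2.82). Ncr1-only cells had 62.4 CPM in the small intestine, against 37.9 CPM in the colon, short of 2-fold. In Ccr6-positive cells the ratio was 0.9955 (0.781 to 1.27).

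Il18r1, the IL-18 receptor chain, was broad outside Gata3-positive cells. Ncr1-only cells of the small intestine had 306 CPM (287 to 326) and Cd3e-only cells of the colon had 301 CPM (278 to 325). None of the steps between neighbours among the first 8 groups in the order exceeded counting error, but groups farther apart did differ. The last of these 8, the colon Ccr6-only cells, had 229 CPM (192 to 272), below the interval of the first. Below them came Klrd1-only cells of the colon at 138 CPM (100 to 186) and colon cells with no marker at 121 CPM (110 to 132). The lowest 2 were the Gata3-only cells, with 103 CPM in the small intestine (92.6 to 115), against 37.7 CPM in the colon (34.1 to 41.7). In Gata3-positive cells Il18r1 was 2.60-fold higher in the small intestine (2.36 to 2.87). Its share of Gata3-positive cells after thinning was 14.6% in the small intestine (12.9 to 16.4), against 5.07% in the colon (4.43 to 5.78).

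Counted over the 10 receptors, the tissues differed at least 2-fold most often in Ncr1-positive and Gata3-positive cells. In Gata3-positive cells 3 receptors were higher in the small intestine (Il23r, Il1r1 and Il18r1), where 7.42% of the 10967 genes measured were that much higher, and 1 was lower (Il1rl1), against 4.40% of genes. In Ncr1-positive cells 2 were higher (Il23r and Il1r1), against 9.26% of 9686 genes, and 2 were lower (Il1rl1 and Il9r), against 4.13%. In Ccr6-positive cells 0 of the 9 measured receptors were higher, against 7.47% of 8371 genes, and 2 were lower (Il1rl1 and Il17rb), against 3.40%. In Klrd1-positive cells 0 were higher, against 7.17% of 7095 genes, and 3 were lower (Il1rl1, Il17rb and Il9r), against 4.88%. In Cd3e-positive cells 0 were higher, against 5.12% of 9153 genes, and 2 were lower (Il1rl1 and Il9r), against 4.27%. The median log2 ratio of the receptors was 0.39 in Gata3-positive cells, where it was 0.16 over all genes, and in the other groups it lay between -0.22 and -0.01, where all genes lay between 0.15 and 0.21. In cells with exactly 1 marker the counts were lower in 3 groups, with 0 receptors in Ccr6-only, 1 in Ncr1-only and 1 in Klrd1-only cells. The call in Ncr1-only cells was Il17rb, lower at 5.10 CPM in the small intestine, against 15.4 CPM in the colon. In Klrd1-only cells it was Il18r1, higher at 282 CPM, against 138 CPM. Neither was among the receptors called in that marker-positive group. In Ncr1-only cells Il23r and Il1r1 fell short of 2-fold. Il1rl1 (5 and 8 UMIs) and Il9r (2 and 5 UMIs) were under the minimum of 20 there. In Cd3e-only cells Il17rb passed 2-fold in place of Il9r. Il17rb was 2.06-fold lower in the small intestine (0.711 to 8.14), with 4 UMIs there and 25 in the colon. Il9r had 1 and 14 UMIs, under the minimum of 20. Without the cells of the highest doublet scores, 0 receptors were called in Ccr6-positive cells.

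**Figure D2:**
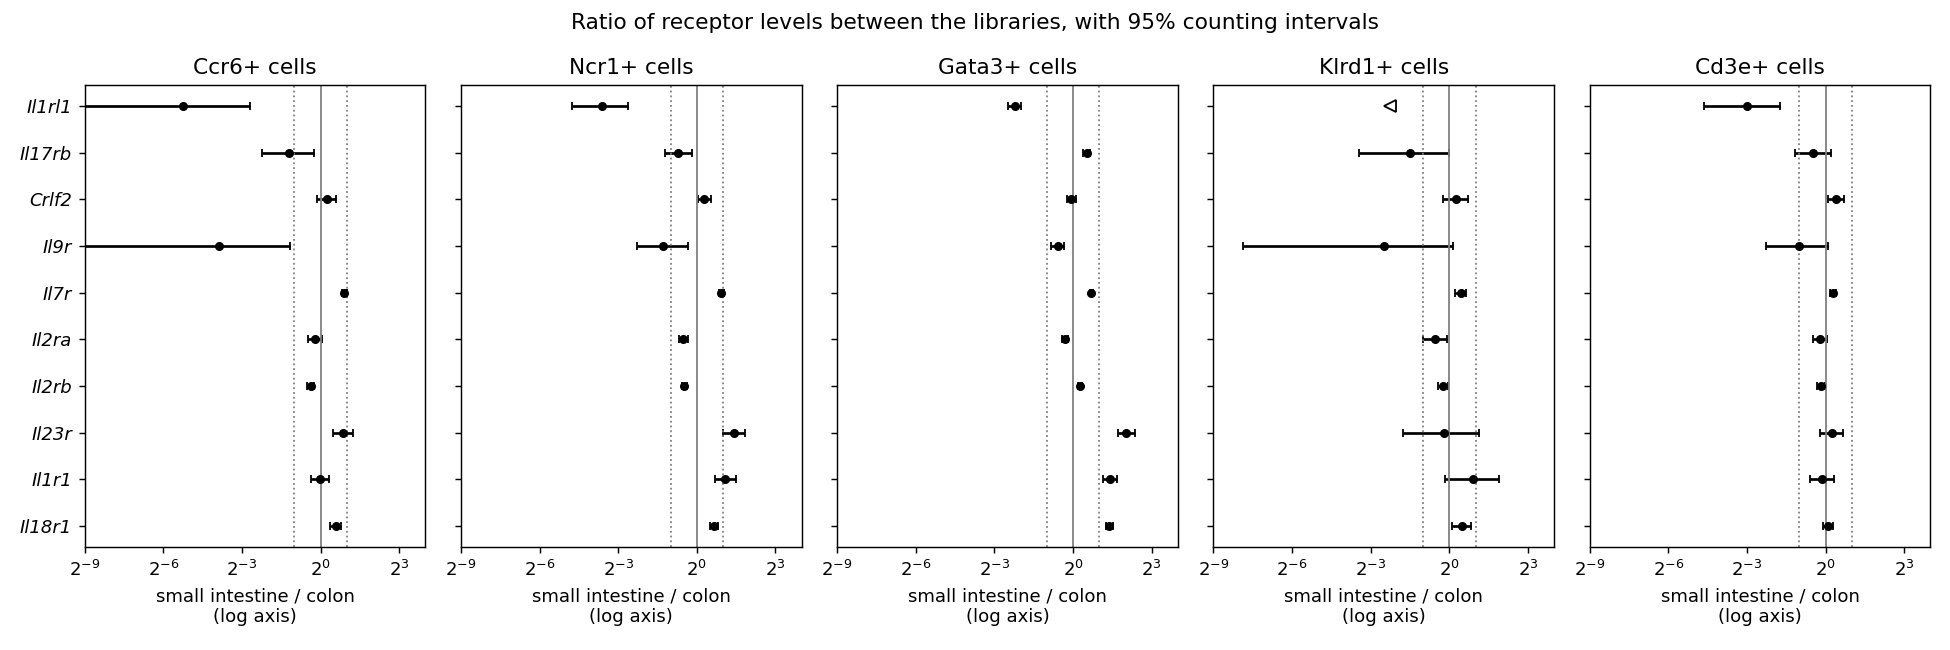
Ratio of the level in the small intestine to that in the colon (log axis) for each receptor in each marker-positive group. Points are ratios of summed levels, bars are 95% counting intervals, the open triangle is an upper bound against 0 UMIs, and dotted lines mark 2-fold. In Ccr6+ cells the bars of Il1rl1 and Il9r run past the left edge. Il1rl1 lies left of the lower dotted line in all 5 groups, and Crlf2 lies between the dotted lines in all 5.

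Within each tissue, marker-positive cells were compared with all cells that lacked the marker. In Gata3-positive cells of the small intestine 3 receptors were at least 2-fold higher, against 2.75% of 10838 genes, and 0 were lower, against 3.85%. Il1rl1 was 9.46-fold higher (6.26 to 14.8), Il17rb 9.88-fold higher (8.31 to 11.8) and Il9r 8.45-fold higher (5.96 to 12.2). In Gata3-positive cells of the colon the same 3 receptors were higher, against 2.90% of 11222 genes, by 3.62-fold for Il1rl1 (3.20 to 4.11), 2.76-fold for Il17rb (2.46 to 3.12) and 2.72-fold for Il9r (2.29 to 3.24). There 3 receptors were also lower, against 6.40% of genes. Il23r was 3.77-fold lower (3.08 to 4.64), Il1r1 2.74-fold lower (2.32 to 3.25) and Il18r1 2.99-fold lower (2.75 to 3.25). These last 3 were also lower in the small intestine, with ratios of 0.553 for Il23r, 0.624 for Il1r1 and 0.604 for Il18r1, short of 2-fold. That depended on which cells were counted. In Gata3-only cells over cells with no marker the ratios were 0.398 for Il23r, 0.475 for Il1r1 and 0.404 for Il18r1, and with at least 2 Gata3 UMIs they were 0.317, 0.286 and 0.310, all past 2-fold.

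In the other groups Il1rl1, Il17rb and Il9r were at or below 0.471 of their level in marker-negative cells wherever a ratio could be given, except for Il1rl1 in Klrd1-positive cells of the small intestine. That group had 0 UMIs in a depth of 469706 UMIs, and its bound of at most 0.576 of the negative level does not reach 2-fold. In the small intestine 3 receptors were lower in Ccr6-positive cells (6.39% of genes), 3 in Ncr1-positive cells (5.68%), 3 in Cd3e-positive cells (9.42%) and 4 in Klrd1-positive cells (8.55%), and 0 were higher (5.83%, 1.90%, 3.93% and 5.90% of genes in that order of groups). The 4 in Klrd1-positive cells were Il17rb, Il9r, Il23r and Il1r1. Il23r was 5.04-fold lower there (2.30 to 13.8), on 6 UMIs. In the colon 3 were lower in each of these groups, against 6.55% of genes for Ccr6, 6.39% for Ncr1, 6.73% for Klrd1 and 5.71% for Cd3e. The marker-negative cells of all these groups include Gata3-positive cells. In the small intestine Gata3-positive cells held 134 of 162 Il1rl1 UMIs, 780 of 936 Il17rb UMIs and 171 of 211 Il9r UMIs. Low ratios of these 3 receptors in the other groups are therefore not separate from the Gata3 comparison.

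Higher receptors outside the Gata3-positive cells were seen in the colon. Ccr6-positive cells had 2, against 8.16% of genes, with Il23r 3.24-fold higher (2.57 to 4.07) and Il1r1 4.13-fold higher (3.41 to 4.96). Cd3e-positive cells had 3, against 3.79%, with Il23r 2.83-fold higher (2.34 to 3.41), Il1r1 2.33-fold higher (1.97 to 2.76) and Il18r1 2.79-fold higher (2.58 to 3.03). Ncr1-positive cells had 1, against 4.38%, with Il2rb 2.23-fold higher (2.12 to 2.35), and Klrd1-positive cells had 0, against 4.81%. The same ratios of the small intestine were 1.81 for Il23r and 1.59 for Il1r1 in Ccr6-positive cells and 1.39 for Il2rb in Ncr1-positive cells. In Cd3e-positive cells of the small intestine they were 0.824 for Il23r (0.625 to 1.07), 0.756 for Il1r1 (0.565 to 0.993) and 1.06 for Il18r1 (0.934 to 1.19). Il23r was at 52.4 CPM in Cd3e-positive cells of the small intestine, against 44.3 CPM in those of the colon. Cd3e-negative cells had 63.6 and 15.7 CPM. For Il1r1 the positive cells had 47.2 and 51.7 CPM, and the negative cells 62.5 and 22.1 CPM. For Il18r1 they had 248 and 235 CPM, and 235 and 84.3 CPM. The difference between the tissues in these ratios over negative cells was not tested. Against colon cells with no marker, Cd3e-only cells of the colon had 50.5 over 27.4 CPM for Il23r and 58.7 over 34.8 CPM for Il1r1. Ncr1-only cells had 938 over 485 CPM for Il2rb, and all of these fell short of 2-fold. Il18r1 in Cd3e-only cells (301 over 121 CPM) stayed past 2-fold. So did Il23r (85.8 CPM) and Il1r1 (105 CPM) in Ccr6-only cells.

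**Figure D3:**
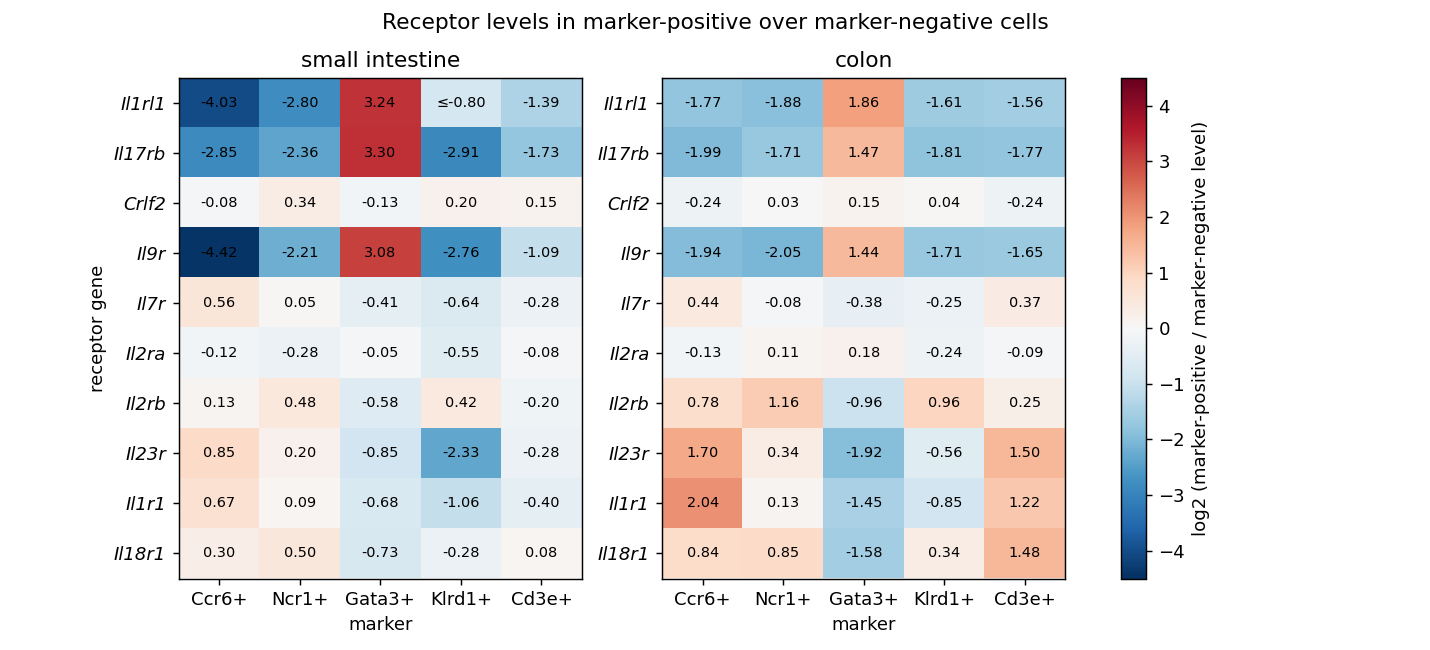
Log2 ratio of each receptor's level in marker-positive cells to that in marker-negative cells of the same library, for the small intestine (left) and the colon (right). Red is higher and blue is lower in marker-positive cells, the number in each cell is the log2 ratio, and ≤ marks an upper bound against 0 UMIs. The Gata3 column is red for Il1rl1, Il17rb and Il9r in both tissues.

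Whether the receptors lie in the same cells was examined in Gata3-positive cells without a Ccr6 or Cd3e UMI, 1448 in the small intestine, against 3705 in the colon, each thinned to 1000 UMIs. Of Il1rl1, Il17rb and Il9r, 1 was seen in 16.0% of these cells of the small intestine, against 23.3% of those of the colon. A pair of them was seen in 0.829% of these cells of the small intestine, against 2.05% of those of the colon, and all 3 in 1 and 2 cells. At this depth most transcripts go uncounted, so these shares are not shares of cells that carry the receptors. In the colon Il17rb was seen in 9.13% of cells with an Il1rl1 UMI (6.60 to 12.2), against 11.1% of cells without one (10.1 to 12.3), and these intervals overlap.

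Il2rb differed between cells with and without the type 2 receptors in the colon. It was seen in 25.6% of cells with an Il1rl1 UMI (21.5 to 29.9), against 19.6% of cells without one (18.2 to 21.0). With Il17rb the order was turned, with Il2rb in 12.9% of Il17rb-positive cells (9.79 to 16.6), against 21.2% of Il17rb-negative cells (19.8 to 22.6). With Il9r it was likewise less frequent, in 11.6% of positive cells (7.33 to 17.2), against 20.7% of negative cells (19.4 to 22.1). The pair farthest apart for Il17rb in the small intestine was Il18r1, seen in 3.17% of Il17rb-positive cells (1.17 to 6.78), against 15.01% of Il17rb-negative cells (13.1 to 17.1). Over all 10 receptors 90 ordered pairs were examined per tissue in these cells, which is each of 45 pairs in both directions. Intervals did not overlap for 13 ordered pairs in each tissue. The second receptor was more frequent with the first in 6 and less frequent in 7 of the small intestine, against 7 and 6 of the colon. In cells positive for Ccr6 or Ncr1 the counts were 2 of 90 in the small intestine, against 5 of 90 in the colon. No such count was made for pairs of other genes, so these counts have no background to be read against.

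**Figure D4:**
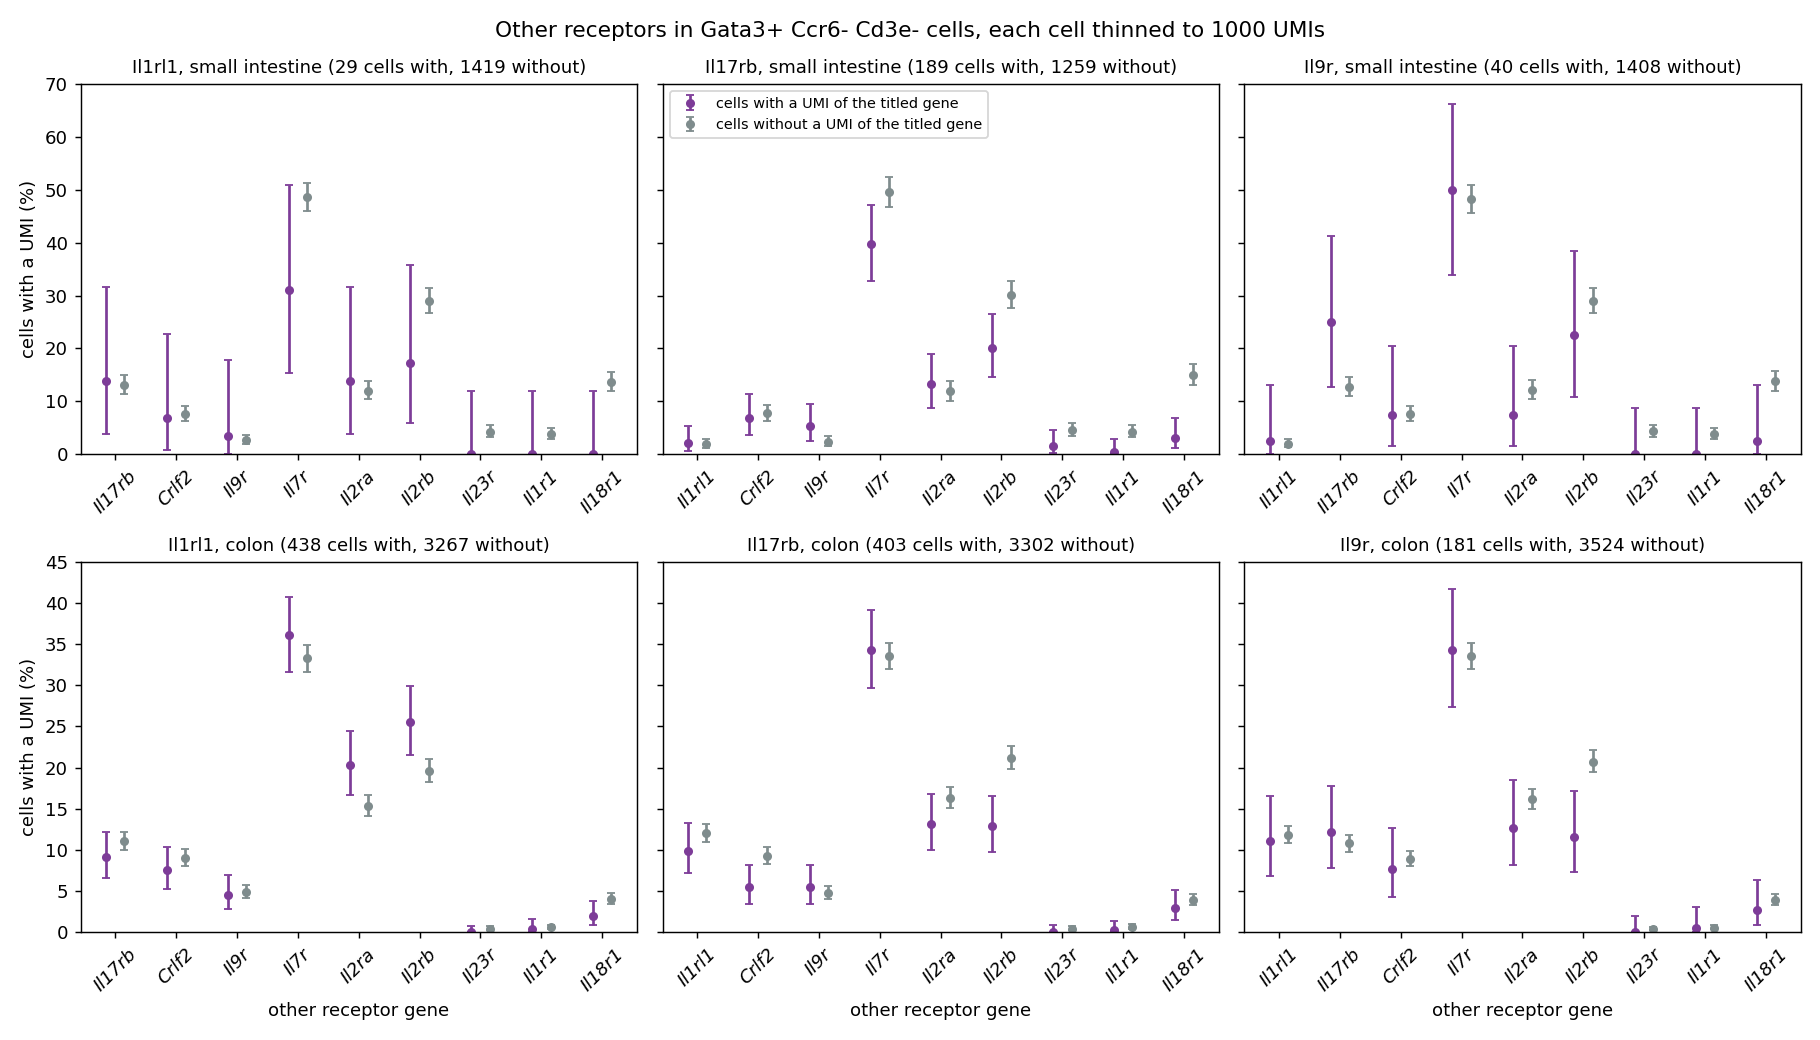
Share of Gata3+ Ccr6- Cd3e- cells with a UMI of each other receptor (percent, linear axis), in cells with (purple) and without (grey) a UMI of Il1rl1, Il17rb or Il9r, after thinning to 1000 UMIs. The small intestine is above the colon, points are shares and bars are 95% Clopper-Pearson intervals. In the colon Il2rb is higher with Il1rl1 and lower with Il17rb and Il9r.

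The same cells, unthinned, were compared for the cytokines that ILC2s make, as a comparison added after these data had been seen. Cells with a receptor UMI were somewhat deeper, with medians of 2926 UMIs in Il1rl1-positive and 2680 UMIs in Il1rl1-negative cells of the colon, and levels are CPM. Il5, the eosinophil growth factor, was at 192 CPM in Il1rl1-positive and 53.6 CPM in Il1rl1-negative cells of the small intestine, 3.59-fold higher (2.67 to 4.76). In the colon it was at 396 CPM in Il1rl1-positive and 198 CPM in Il1rl1-negative cells, 1.996-fold higher (1.86 to 2.15). Areg, which encodes amphiregulin, was 2.08-fold higher with Il1rl1 in the small intestine (1.83 to 2.35), against 1.43-fold higher in the colon (1.35 to 1.51).

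Il4, which encodes IL-4, was higher with Il17rb. It was at 266 CPM in Il17rb-positive and 81.8 CPM in Il17rb-negative cells of the small intestine, 3.25-fold higher (2.77 to 3.83). In the colon it was at 152 CPM in Il17rb-positive and 103 CPM in Il17rb-negative cells, 1.48-fold higher (1.32 to 1.65). Calca, which encodes the neuropeptide CGRP, was 2.73-fold higher with Il17rb in the small intestine (2.53 to 2.95), against 1.13-fold higher in the colon (1.06 to 1.21). With Il2ra, Il5 was 1.80-fold higher in the colon (1.67 to 1.93) and Il1rl1 1.53-fold higher (1.38 to 1.69). In the small intestine Il7r was 2.01-fold lower in Il1rl1-positive cells (1.66 to 2.44) and Il9r 3.94-fold higher in Il17rb-positive cells (2.82 to 5.55). Il18r1 was 5.77-fold lower in Il17rb-positive cells of the small intestine (4.36 to 7.76), at 36.0 CPM, against 207 CPM in Il17rb-negative cells.

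These sets still held cells with ILC3 markers. In the small intestine 7.47% of Il17rb-positive and 31.3% of Il17rb-negative cells had an Ncr1 UMI, and Il22 was at 434 CPM in Il17rb-positive and 3225 CPM in Il17rb-negative cells. The ratios were therefore also taken in Gata3-only cells, a choice made after these data had been seen. Il18r1 was then 5.65-fold lower in Il17rb-positive cells of the small intestine (4.01 to 8.18), and Il22 was still at 371 CPM in Il17rb-positive and 3247 CPM in Il17rb-negative cells. Il5 stayed above 2-fold with Il1rl1 in the small intestine at 2.78-fold (2.06 to 3.69), and with Il17rb so did Il4 at 2.46-fold (2.08 to 2.92) and Il9r at 2.91-fold (2.05 to 4.20). Below 2-fold in Gata3-only cells of the small intestine were Areg with Il1rl1 (1.91-fold higher), Il7r with Il1rl1 (1.81-fold lower) and Calca with Il17rb (1.95-fold higher). The cytokines did not divide cleanly by receptor there. Il5 and Areg were also higher with Il17rb, at 1.97-fold (1.55 to 2.52) and 1.73-fold (1.57 to 1.90). For Il13 the ratio was 0.975 with Il1rl1 (0.574 to 1.56) and 1.02 with Il17rb (0.762 to 1.35). For Il4 it was 0.880 with Il1rl1 (0.645 to 1.18). The part of ILC3 genes in the ratios of the small intestine was not tested.

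In cells positive for Ccr6 or Ncr1 (2093 in the small intestine, against 980 in the colon), Il22 was the ILC3 cytokine with the most UMIs. It was 1.20-fold higher in Il23r-positive than in Il23r-negative cells of the small intestine (1.17 to 1.23), against 1.86-fold higher in those of the colon (1.79 to 1.93). Il17a reached 93.8 CPM in Il23r-positive and 3.94 CPM in Il23r-negative cells of the colon, a 23.8-fold difference (12.5 to 49.1). That difference rested on few cells. Of the 50 Il17a UMIs in Il23r-positive cells, 25 were in 1 cell and 15 in another, and 2 were left when cells with a Cd3e, Cd3d, Cd3g or Trdc UMI were set aside. Il17a in the small intestine had 11 UMIs in 409 Il23r-positive cells and 49 UMIs in 1684 Il23r-negative cells, so these counts are not levels. In the colon, cells of this set with an Il1rl1, Il17rb or Il9r UMI had medians of 5790, 5410 and 5630.5 UMIs, against 2774, 2762 and 2810.5 UMIs in cells without one.

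Il1r1, Il1rl1 and Il18r1 lie close together on chromosome 1 in a cluster of 6 receptor genes over 478 kb, all on the plus strand (GENCODE vM21, mm10). Il1rl1 spans chr1:40429570-40465415, and Il18r1 starts 136 bases after its end, at chr1:40465552-40500854. Il1r1 lies upstream at chr1:40225080-40317257. In Gata3-only cells Il1rl1 was 37.4 CPM in the small intestine, against 142 CPM in the colon. Il1r1 and Il18r1 lay the other way, with 35.0 and 103 CPM in Gata3-only cells of the small intestine, against 8.35 and 37.7 CPM in those of the colon. Il18rap, the partner chain of Il18r1 and the last gene of the cluster, was 17.3 CPM in Gata3-only cells of the small intestine (13.2 to 22.4), against 22.8 CPM in those of the colon (19.95 to 25.8). Il1r2, the decoy receptor at the other end, was highest in Ncr1-only cells of the small intestine at 41.1 CPM (34.3 to 48.8), against 9.83 CPM in those of the colon. Levels of different genes are not compared with each other, because the 3′ tags of each gene are captured differently.

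**Figure D5:**
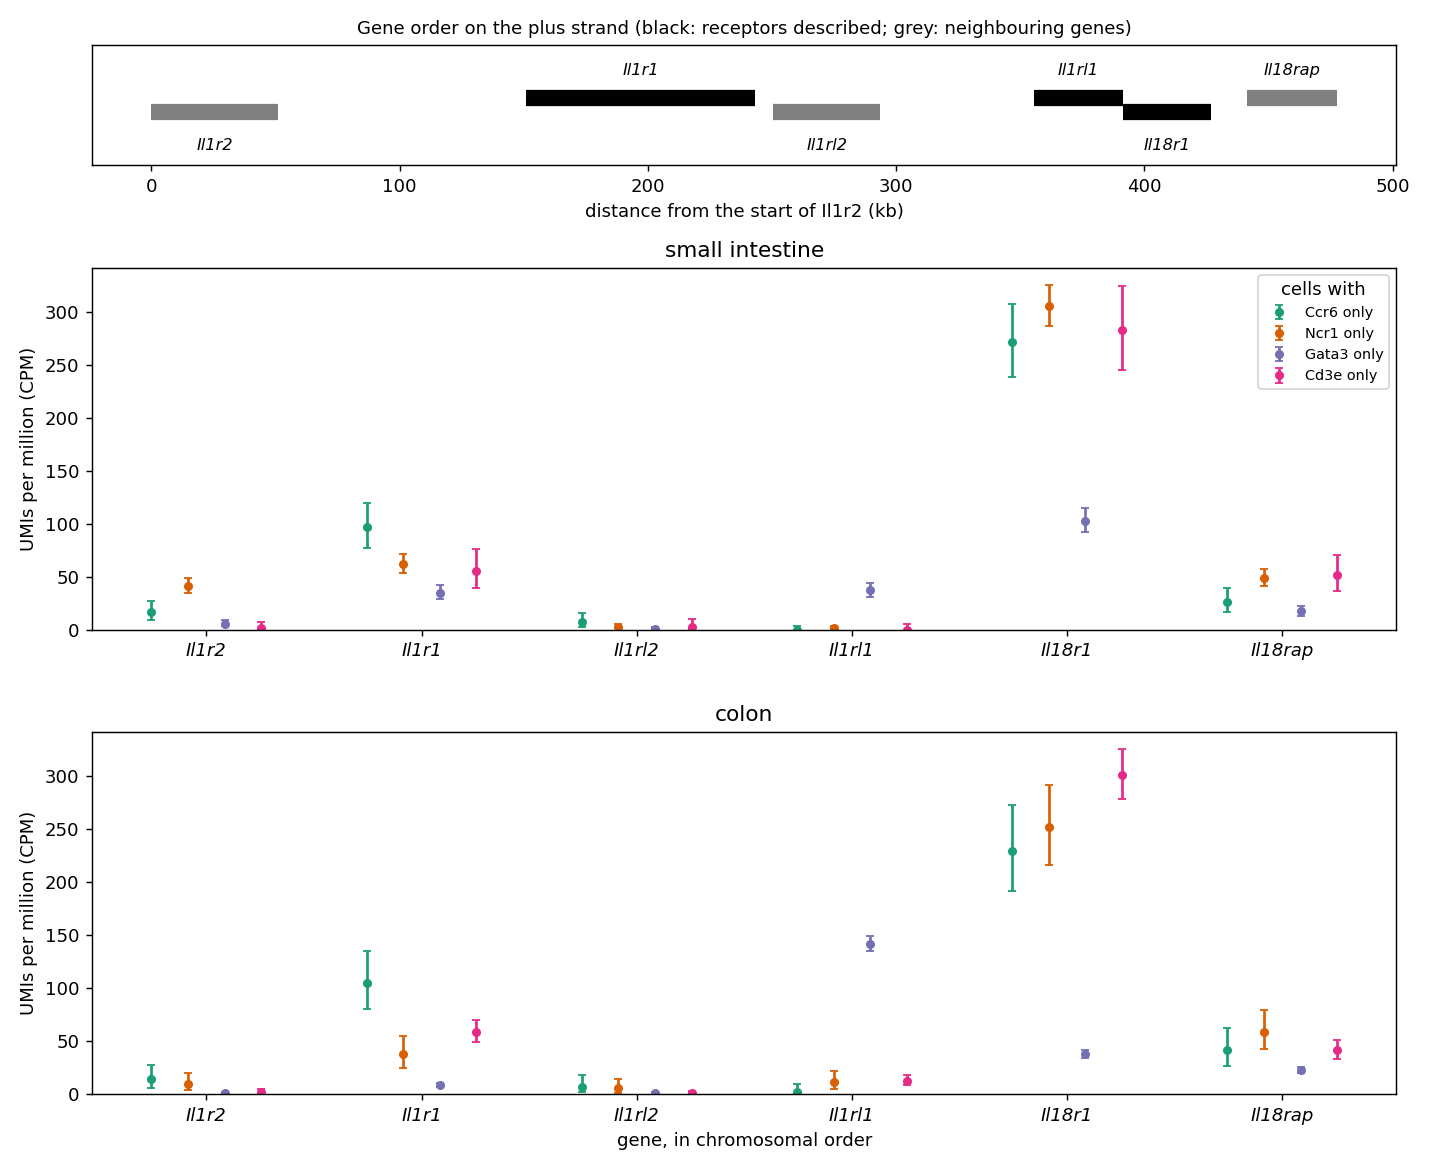
Upper panel, order and extent of the 6 genes in kb from the start of Il1r2. Lower panels, level of each gene (CPM, with 95% counting intervals) in cells with exactly 1 of 4 markers, for the small intestine above the colon. Il1rl1 stands out in Gata3-only cells, which are the lowest of the 4 groups for the adjacent Il18r1 in both tissues.

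Partner chains and signalling genes were described from lists chosen with earlier results of these data known. In Gata3-positive cells 2 of the 13 measured IL-1 family genes passed 2-fold upwards in the small intestine, against 7.42% of all genes tested, and 0 were lower, against 4.40%. Il1r2 was 8.30-fold higher (5.32 to 13.3), with 84 UMIs in the small intestine, against 27 in the colon, and Il18bp, which encodes a soluble IL-18 inhibitor, was 2.38-fold higher (1.44 to 3.91). Of 5 measured IL-17 family genes 2 were higher and 1 was lower. Il17re, a chain of the IL-17C receptor, was 2.99-fold higher (2.50 to 3.58), with 52.3 CPM in the small intestine, against 17.5 CPM in the colon. The other changes, in Il17rc and Il17rd, rested on 21 and 31 UMIs. Of 14 measured genes of other cytokine receptors 0 were higher and 2 were lower. Il10ra, the IL-10 receptor chain, was 8.12-fold lower in the small intestine (5.001 to 14.1), with 3.35 CPM there and 27.2 CPM in the colon, and Il6ra was lower with 1 UMI there and 30 in the colon. Of 12 measured common gamma chain genes 0 were higher and 1, Il21r, was 2.16-fold lower (1.53 to 3.14). Of 6 measured IL-12 and IL-23 family genes 0 passed 2-fold in either direction, among them Il12rb1, the partner chain of Il23r.

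In Ncr1-positive cells 3 of 13 IL-1 family genes and 1 of 3 IL-17 family genes were higher in the small intestine, against 9.26% of all genes tested. There 2 of 12 common gamma chain genes and 1 of 6 IL-12 and IL-23 family genes were lower, against 4.13%. Il21r, the IL-21 receptor, was 11.8-fold lower in the small intestine (8.21 to 17.3), with 7.59 CPM there and 89.2 CPM in the colon. In Cd3e-positive cells Il21r was instead 2.15-fold higher in the small intestine (1.78 to 2.60), at 152 CPM there and 70.7 CPM in the colon. Il12rb2, the IL-12 receptor chain, was 5.10-fold lower in Ncr1-positive cells of the small intestine (2.97 to 9.08), and 10 ILC1 and NK cell genes summed to 1383 CPM there and 2764 CPM in the colon. Il17re was 3.49-fold higher (2.67 to 4.61) and Myd88, the adaptor of IL-1 family receptors, was 2.55-fold higher (1.92 to 3.44).

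The genes whose levels ran most like each receptor over the 12 groups were listed as a description, from 4040 genes with at least 50 CPM in some group and 100 UMIs in all. For Il1rl1 they were Hlf (Pearson r of 0.97) and Ccr8 (0.96), for Il17rb Klrg1 (0.96) and AW011738 (0.95), and for Il9r Ptgir (0.99) and Slc7a8 (0.99). For Il7r they were Rtn4 and Nfatc2 (0.98 each), for Il2ra Tmem147 (0.93) and Tmem234 (0.86), and for Il2rb Il4ra and Serpina3g (0.92 each). For Il23r they were Ing3 (0.97) and Clcn3 (0.96), for Il1r1 Ppp1r11 (0.95) and Cyb5a (0.94), and for Il18r1 Smap2 (0.97) and Adgrg5 (0.96). Crlf2, which varied least, had the lowest, with 0.78 for Nfkbid and 0.76 for Pcnp. The 12 points come from 2 libraries, and the groups within a tissue share its depth and free RNA.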

How the data were processed

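Single-cell libraries of sorted gut ILCs were made with the 10x Chromium 3′ v2 kit, per the labels' protocols. The authors deposited raw UMI counts for each barcode, from Cell Ranger 3.0.2 on mm10 per the submitters' processing notes, and a table of selected cells whose selection rule and doublet treatment are not given in the sources used here. None of its values (0) differed from the matrices, and its highest mitochondrial shares were 4.63% for the small intestine and 4.94% for the colon. Counts were summed per tissue and marker group and scaled to CPM. Intervals are exact Poisson for levels, exact conditional binomial for ratios and Clopper-Pearson for shares, at 95%, and cover counting error only. A receptor was called at 20 or more UMIs over both groups and a ratio of at least 2, and 0 UMIs were set to a floor of 3 counts, per group, for a bound. Thinning to 1000 UMIs left out 0 cells. The free RNA profile came from barcodes of 10 to 50 UMIs, scaled by Igkc, Igha and Jchain. All receptors are named by the rule that lists them, and pattern genes are the first 2 by Pearson r on log2(CPM + 10). The members and lists were chosen with earlier results of these data known. Python 3.11.15, scipy 1.17.1 and scanpy 1.11.5 were used, and ratios and thinning were tested on simulated data. Alternatives were other groups, scalings, cells and filters.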

Additional observations from a re-analysis of the deposited data

Results flagged for a closer look

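The ratio of small intestine to colon ran in opposite directions between marker-positive groups, with counting intervals on opposite sides of 1, for 2 receptors. Il17rb had a ratio of 1.43 in Gata3+ cells, against 0.436 in Ccr6+, 0.614 in Ncr1+ and 0.352 in Klrd1+ cells. Il2rb had a ratio of 1.19 in Gata3+ cells, against 0.770 in Ccr6+, 0.721 in Ncr1+, 0.843 in Klrd1+ and 0.888 in Cd3e+ cells. The difference between groups was not tested, since each group has 1 library per tissue, and the groups share cells.

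Receptor UMIs also lay in barcodes outside the table of cells. There were 1658 in 395 barcodes of the small intestine and 886 in 317 barcodes of the colon that had at least 1000 UMIs, with median mitochondrial shares of 5.41% and 5.54%. Calling cells from the full matrices instead kept 5865 and 7852 barcodes.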

How the results depend on the processing

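Of 55 calls over the 15 comparisons, all 55 were kept with the mean of single-cell CPM, 54 with a median-ratio size factor and 54 with cells from the unfiltered matrices. Free RNA subtraction kept 53, leaving out high doublet scores (241 cells of the small intestine and 456 of the colon) 50, at least 2 marker UMIs 45, thinning to 1000 UMIs 38 and disjoint groups 35. Thinning and disjoint groups left 13 and 4 calls with no value, since counts fell to the floor. Of the 13 calls in Gata3+ cells between 11 and 13 were kept under each setting. Scrublet's own threshold marked 0 and 1 cells, which left nothing to compare, and the highest scores were left out instead. Whether doublets had been removed before deposit is not given in the sources used here. For Il17rb, 2 ratios turned in Klrd1-only cells, where the log2 ratio became 1.33 between tissues and 0.57 over negative cells of the small intestine, on 3 UMIs there.

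The number of receptors called between tissues in Ccr6+ cells was 2 and became 0 with disjoint groups, at least 2 marker UMIs, thinning, doublet scores left out or a minimum of 50 UMIs. In Ncr1+ cells 4 became 1 with disjoint groups (Il17rb, which was not among the 4). In Klrd1+ cells 3 became 1 with disjoint groups (Il18r1, which was not among the 3) and 0 with at least 2 marker UMIs, thinning or 50 UMIs. In Cd3e+ cells 2 became 1 with free RNA subtracted or cells from the unfiltered matrices and 0 with thinning. Against negative cells of the small intestine, Gata3+ 3 became 6 with disjoint groups and 7 with at least 2 marker UMIs, Klrd1+ 4 became 1 with disjoint groups and 2 with thinning, and Ccr6+ and Cd3e+ 3 became 1 with thinning. Against negative cells of the colon, Klrd1+ 3 became 6 with at least 2 marker UMIs or thinning and 5 with the mean of single-cell CPM. The cause of these changes was not tested. Disjoint groups also held fewer cells, thinned groups held fewer UMIs, and the markers were called again on the thinned counts.

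No paired analysis was possible because each tissue has 1 library. With 1 pool per tissue leaving out a replicate was not possible, and mice, dissection, sort and library cannot be told apart from tissue.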
